A study of Mus musculus with 22 samples.

Results

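The genes described here are 7 ligands of the activating receptor NKG2D (Raet1a, Raet1b, Raet1c, Raet1d, Raet1e, Ulbp1 and H60b) and 3 receptors of natural killer (NK) cells (Klrk1, Klrd1 and Ncr1), 10 genes out of 24063 in the table of a first set of tumours and 24019 in that of a second set. The rows were found by symbol, ignoring case, but the genes themselves were selected on driver differences of these same tumours, that of Klrd1 among lucOS tumours of set 2 among them. The differences between driver genotypes in these genes are therefore a description: no p-value of a single gene is printed for them, and the counts of genes past the threshold, and the calls gained or lost in other fits, only describe the fit and support nothing.

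RNA was sequenced from 22 liver tumours of C57BL/6 mice raised by hydrodynamic tail-vein injection, in which plasmids are pushed into hepatocytes through the tail vein. All tumours carried MYC and none was treated. The second driver was either β-catenin (CTNNB1) or a change named p53, written sgp53 in the titles of the second set. In the p53 tumours Trp53 transcripts were lower. Each tumour also carried lucOS, a luciferase joined to model antigen peptides for T cells, or luciferase alone (luc). Set 1 held 2 β-catenin lucOS, 4 β-catenin luc, 3 p53 lucOS and 3 p53 luc tumours, and set 2 held 3 β-catenin lucOS, 3 β-catenin luc and 4 p53 lucOS tumours. The study's title names immune escape of liver cancer with activated β-catenin as its subject. The labels give no ages, do not give the construct sequences and do not tie tumours to animals, so p-values measure the spread between these tumour samples.

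NKG2D, the product of Klrk1, is carried by NK cells and by activated CD8 T cells of the mouse and signals through the adaptor DAP10 (Hcst). Its ligands resemble MHC class I molecules and appear on stressed, infected or transformed cells; in the mouse they form the RAE-1 family (the Raet1 genes), MULT1 (Ulbp1) and the H60 family. Klrd1 encodes CD94, which pairs with NKG2A (Klrc1) or NKG2C (Klrc2) to read the MHC class Ib molecule Qa-1 (H2-T23), and Ncr1 encodes NKp46, an activating receptor used to define mouse NK cells. In C57BL/6 mice the RAE-1 forms described are RAE-1δ and RAE-1ε, whereas RAE-1α, RAE-1β and RAE-1γ were described in other strains.

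The ligand genes lie on chromosome 10 of mm10. In GENCODE vM21, Raet1e spans chr10:22158569-22374139 and Raet1d chr10:22360552-22374139 on the plus strand, H60b spans chr10:22158586-22288849 within Raet1e, and Ulbp1 lies apart on the minus strand at chr10:7440362-7473638. The receptor genes Klrd1 (chr6:129591782-129598775, plus strand) and Klrk1 (chr6:129610323-129623864, minus strand) are neighbours, and Ncr1 lies at chr7:4337724-4345164 on the plus strand. No gene named Raet1a, Raet1b or Raet1c exists in GENCODE vM21 or in the RefSeq table of GRCm38.p6 used here, although both deposited tables hold rows of these names. The labels do not say whether strand was kept. H60b, Raet1d and Raet1e lie on the same strand, so strand would not separate reads where they overlap. How the authors' counting assigned such reads was not tested.

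The sequence shared by Raet1e and Raet1d is shown because it bears on what the separate rows can tell. The coding sequences of the Raet1e transcript (753 bases) and of the Raet1d transcript (747 bases) aligned with 710 identical and 31 different bases and 18 bases in gaps. Exon 4 of 7 of each transcript, which is wholly coding (chr10:22180618-22180872 for Raet1e and chr10:22370866-22371114 for Raet1d, plus strand, GENCODE vM21), held 17 of the different bases. Capitals mark bases that differ from the other gene or face a gap in it.
Raet1e exon: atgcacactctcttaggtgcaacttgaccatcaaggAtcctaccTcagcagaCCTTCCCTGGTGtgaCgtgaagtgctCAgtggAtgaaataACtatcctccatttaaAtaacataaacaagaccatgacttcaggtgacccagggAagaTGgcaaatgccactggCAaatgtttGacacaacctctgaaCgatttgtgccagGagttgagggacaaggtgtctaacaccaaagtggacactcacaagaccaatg
Raet1d exon: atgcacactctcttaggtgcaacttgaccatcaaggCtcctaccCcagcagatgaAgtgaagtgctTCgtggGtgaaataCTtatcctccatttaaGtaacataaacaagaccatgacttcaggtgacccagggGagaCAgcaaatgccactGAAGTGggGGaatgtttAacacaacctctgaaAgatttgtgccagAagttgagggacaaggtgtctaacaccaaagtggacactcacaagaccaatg

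The start regions were closer still. Of the 250 bases before the transcript start of Raet1e (chr10:22173247-22173496) and of Raet1d (chr10:22361644-22361893), both on the plus strand and from RefSeq on GRCm38.p6, 248 could be set side by side and 245 were identical. Raet1e also has a start further upstream in the annotation, which is not shown. Capitals mark the 3 bases that differ.
Raet1e start: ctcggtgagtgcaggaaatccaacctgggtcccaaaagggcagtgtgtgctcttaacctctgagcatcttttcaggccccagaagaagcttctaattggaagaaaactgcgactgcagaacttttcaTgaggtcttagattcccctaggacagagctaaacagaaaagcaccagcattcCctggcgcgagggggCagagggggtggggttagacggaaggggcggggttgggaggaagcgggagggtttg
Raet1d start: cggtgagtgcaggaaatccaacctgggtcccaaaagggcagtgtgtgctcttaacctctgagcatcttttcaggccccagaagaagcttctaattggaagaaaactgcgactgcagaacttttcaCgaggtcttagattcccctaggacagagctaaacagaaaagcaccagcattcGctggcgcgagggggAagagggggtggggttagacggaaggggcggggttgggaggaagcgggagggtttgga

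Neither start region held CTTTGA, the core of the TCF/LEF site through which β-catenin acts on its target genes, on either strand, and 13.8% of 32851 start regions of that length did. Neither held the E-box CACGTG, a letter string bound by MYC, which 6.0% of start regions held. Both held GCGGGA, a core of E2F sites, as did 16.9% of all start regions.

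Total reads over genes ran from 33.706 M to 54.873 M per tumour in set 1 and from 33.551 M to 50.116 M in set 2. Trp53 values ran from 3296 to 4994 in the 6 β-catenin tumours and from 1423 to 2280 in the 6 p53 tumours of set 1, and from 2631 to 4405 in the 6 β-catenin tumours and from 1345 to 2223 in the 4 p53 tumours of set 2. Axin2, a β-catenin target, ran from 868.3 to 3586 in β-catenin tumours and from 12.2 to 103 in p53 tumours of set 1, and from 349.1 to 1047 in β-catenin tumours and from 2.38 to 11 in p53 tumours of set 2. In both genes the β-catenin and p53 tumours of a set did not overlap. The 9 hepatocyte markers found summed to 1014000 to 1221000 in β-catenin and 466500 to 844600 in p53 tumours of set 1, which did not overlap. In set 2 they summed to 364200 to 1133000 in β-catenin and 323400 to 614300 in p53 tumours, which overlapped. All values are the authors' signal, reads divided by 1 factor per tumour, and the 2 tables were scaled separately, so levels are compared within a set. In set 2, tumours named AL are all p53 (p53 tumours 1 to 3), while p53 tumour 4 and the 6 β-catenin tumours are named JAX; what the prefixes stand for is not stated.

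In set 2, RAE-1 ligand transcripts were higher and NK receptor transcripts lower in β-catenin lucOS than in p53 lucOS tumours. Raet1e, encoding RAE-1ε, stood at 452, 376 and 304 in the β-catenin lucOS tumours 1 to 3 of set 2 and at 466, 490 and 461 in the β-catenin luc tumours 1 to 3, against 3.65, 36.8, 68.7 and 10.7 in the p53 lucOS tumours 1 to 4. All 6 β-catenin tumours lay above all 4 p53 tumours, and on the log axis the β-catenin values lay closer together than the p53 values. Among lucOS tumours the fitted β-catenin minus p53 difference of Raet1e on log2(value + 1) was 4.26 ± 0.77 (SE, n = 3 and 4), a 19.2-fold difference on that scale, which understates changes of low genes. Single tumours moved it by over 1.5 times, to 3.58 without p53 lucOS tumour 1 and to 4.88 without p53 lucOS tumour 3, and it was called in both fits.

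In set 1, Raet1e stood at 625 and 254 in the β-catenin lucOS tumours 1 and 2, against 2.68, 41.8 and 46.0 in the p53 lucOS tumours 1 to 3. It stood at 49.9, 299, 428 and 259 in the β-catenin luc tumours 1 to 4, against 5.43, 156 and 13.8 in the p53 luc tumours 1 to 3. The lucOS groups did not overlap, and 5 of the 6 β-catenin tumours lay above every p53 tumour of the set; β-catenin luc tumour 1 and p53 luc tumour 2 crossed. The fitted difference of Raet1e was 4.36 ± 1.44 among lucOS tumours (SE, n = 2 and 3) and 3.04 ± 1.20 among luc tumours (n = 4 and 3), neither of which was called. Single tumours moved these values by over 1.5 times. The luc difference was 2.08 without p53 luc tumour 1, 4.38 without p53 luc tumour 2 and 3.71 without β-catenin luc tumour 1, and of the fits that left out a tumour it was called only in that without p53 luc tumour 2, beside 6.14% of genes. The lucOS difference was 3.16 without p53 lucOS tumour 1, 4.99 without p53 lucOS tumour 3, 3.71 without β-catenin lucOS tumour 1 and 5.005 without β-catenin lucOS tumour 2, never called. In p53 luc tumour 1, which had the lowest Raet1e of its group, the ribosomal RNA precursor Rn45s took 8.90% of reads, against 1.22% to 2.04% in the other tumours of set 1, and the part of this in the luc difference was not tested.

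**Figure D1:**
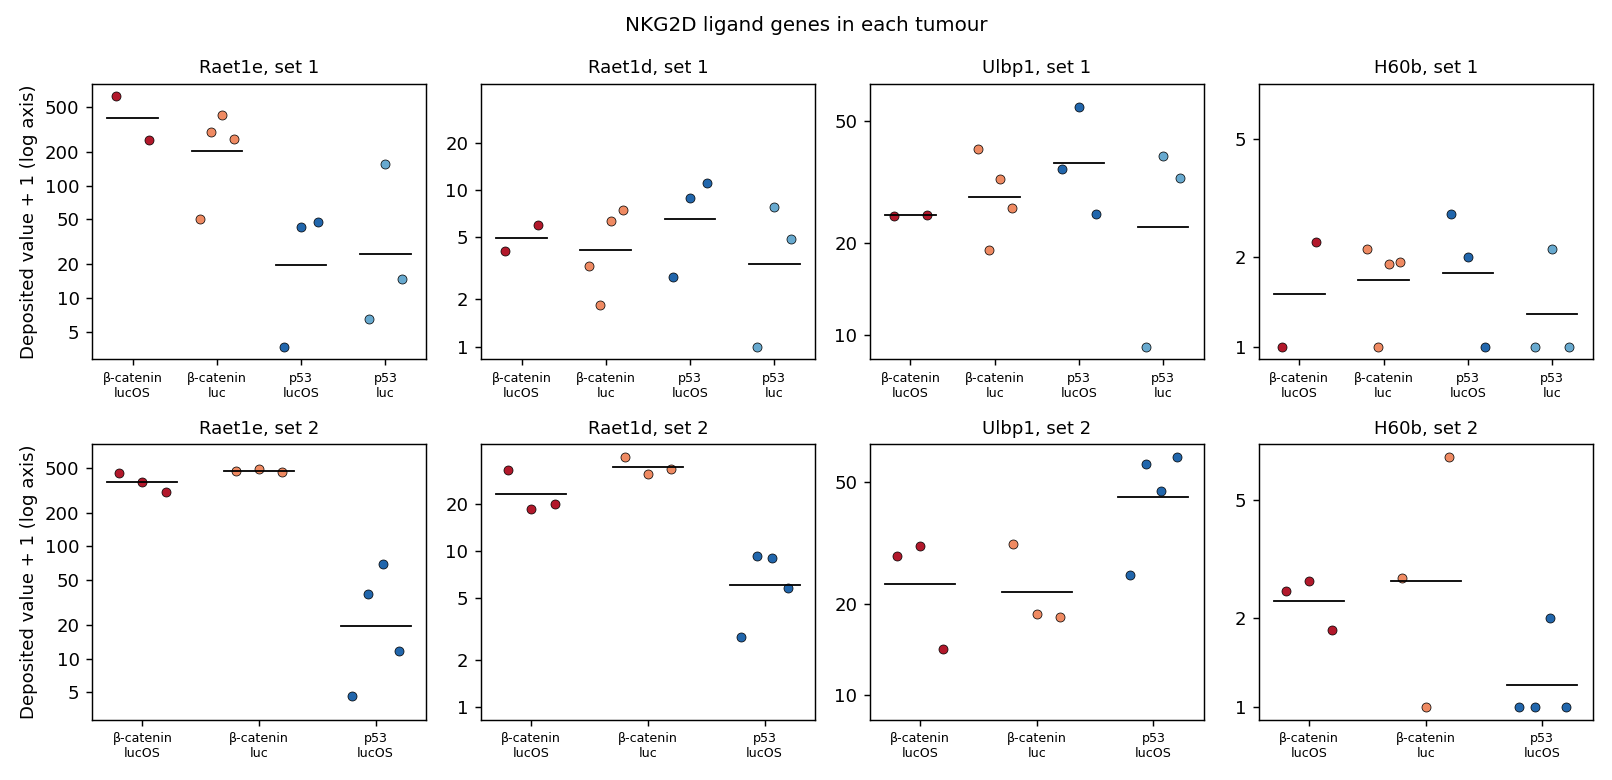
Deposited values plus 1 (log axis) of Raet1e, Raet1d, Ulbp1 and H60b in each tumour (1 point per tumour) of set 1 (top) and set 2 (bottom), with the mean of the log values as a line. Raet1e sits between 304 and 490 in all 6 β-catenin tumours of set 2 and at 68.7 or below in the p53 tumours, while Ulbp1 runs from 13.2 to 30.3 in the β-catenin tumours and from 23.7 to 59.4 in the p53 tumours.

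The rows named Raet1c, Raet1a and Raet1b followed Raet1e. In tumours with at least 100 Raet1e reads, 6 in each set, Raet1c had 85.6% to 90.7% of the Raet1e reads in set 1 and 87.0% to 91.6% in set 2. Raet1a had 47.1% to 59.0% and 50.7% to 60.1%, and Raet1b had 28.0% to 36.1% and 42.5% to 50.5%. These shares are of reads, not per length. The tumours kept were the β-catenin tumours of set 2 and, in set 1, p53 luc tumour 2 and the β-catenin tumours except luc tumour 1. In the p53 lucOS tumours of set 2, with 4 to 69 Raet1e reads, Raet1a had 58.0% to 150% and Raet1b 52.2% to 125%. The p53 lucOS tumour 3, with 69 of these reads, had 58.0% and 52.2%, and p53 luc tumour 2 of set 1, with 137, had 51.1% and 33.6%. In set 1, β-catenin luc tumour 1, with 44, had 61.4% and 36.4%, and p53 lucOS tumour 2, with 42, had 81.0% and 52.4%. Low Raet1e reads mostly go with the p53 driver, so driver and read number cannot be told apart in these shares. Pearson's r of the log2 values of Raet1a, Raet1b and Raet1c with those of Raet1e was 0.991 or more over the 12 tumours of set 1 and 0.996 or more over the 10 tumours of set 2, where the points share library and scaling. The rows stand for near-identical copies, so a count of members takes in the same reads or the same locus more than once, and how the authors' counting divided reads among them was not tested. Summed over the 5 Raet1 rows, the value ran from 908 to 1357 in β-catenin lucOS tumours and from 19.2 to 213 in p53 lucOS tumours of set 2, a fitted difference of 3.96 ± 0.66 (SE, n = 3 and 4).

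Raet1d, encoding RAE-1δ, differed from the other rows between the sets. It stood at 32.0, 17.4 and 18.9 in the β-catenin lucOS tumours and at 38.9, 30.1 and 32.4 in the β-catenin luc tumours of set 2, against 1.82, 8.28, 7.96 and 4.75 in the p53 lucOS tumours, a lucOS difference of 1.92 ± 0.49 (SE, n = 3 and 4). The β-catenin and p53 tumours of set 2 did not overlap. In set 1 Raet1d ran from 0.854 to 6.47 in β-catenin tumours and from 0 to 10.1 in p53 tumours, which overlapped, and it fell under the filter of 10 in 2 tumours. Its reads came to 0.286% to 4.38% of Raet1e reads in set 1 and 4.63% to 8.35% in set 2. The set 2 call of Raet1d was lost without p53 lucOS tumour 1 (log2 1.55) or 4 (1.90) and without β-catenin lucOS tumour 1 (1.66) or 3 (2.02).

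**Figure D2:**
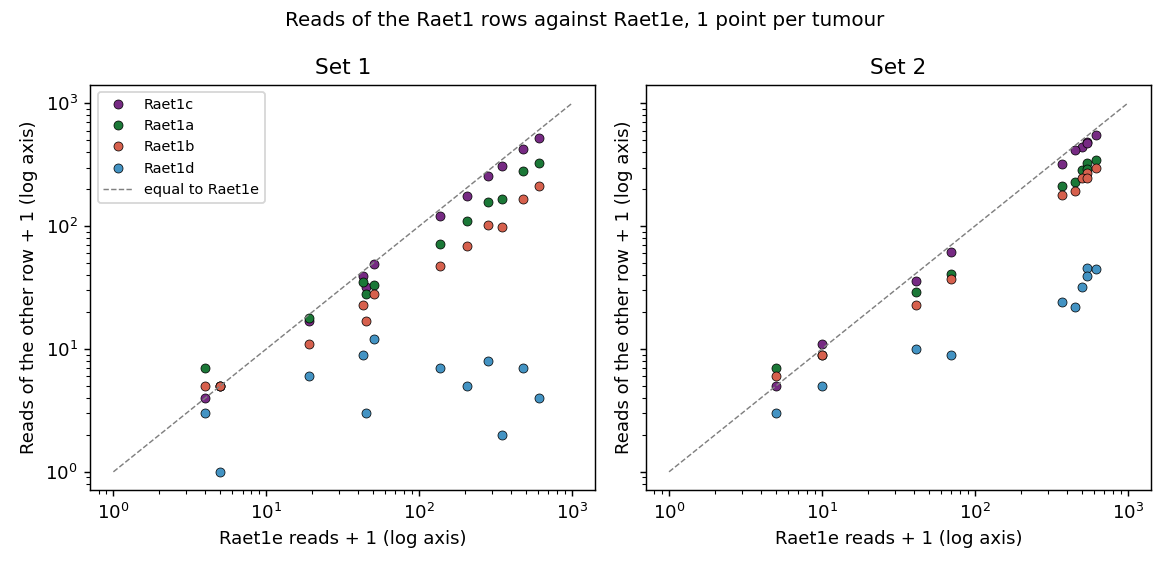
Reads plus 1 of the Raet1c, Raet1a, Raet1b and Raet1d rows against Raet1e reads plus 1 (both log axes), 1 point per tumour, set 1 left and set 2 right, with a dashed line of equality. Raet1c runs close to it over the full range. Raet1a and Raet1b lie below it at high reads and reach or cross it in the p53 tumours with 3 or 4 Raet1e reads. Raet1d lies lower and spreads with little relation to Raet1e in set 1.

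Ulbp1, encoding MULT1, did not follow the RAE-1 genes. It stood at 27.6, 29.9 and 13.2 in the β-catenin lucOS tumours and 30.3, 17.4 and 17.1 in the β-catenin luc tumours of set 2, against 23.7, 56.1, 45.8 and 59.4 in p53 lucOS tumours. In set 1 it ran from 17.9 to 39.7 in β-catenin tumours and from 8.15 to 54.8 in p53 tumours. The groups overlapped, except that 23.5 and 23.7 in the β-catenin lucOS tumours of set 1 lay just below 23.9, the lowest p53 lucOS value, and the fitted differences were −0.94 ± 0.46 (lucOS, set 2), −0.57 ± 0.67 (lucOS, set 1) and 0.33 ± 0.56 (luc, set 1), none called. H60b, another NKG2D ligand, had at most 7 reads in any tumour of the series and did not pass the filter in either set. H60c, a further H60 gene, had a value of 4.54 or less in every tumour, and H60a is not analysed here.

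Klrk1, encoding NKG2D itself, stood at 10.9, 13.3 and 4.11 in the β-catenin lucOS tumours and at 13.8, 8.73 and 24.7 in the β-catenin luc tumours of set 2, against 61.1, 72.7, 69.6 and 46.3 in the p53 lucOS tumours. The β-catenin and p53 tumours did not overlap, and the lucOS difference was −2.71 ± 0.49 (SE, n = 3 and 4). Set 1 showed less separation: 11.2 and 16.2 in β-catenin lucOS tumours against 39.3, 30.9 and 12.9 in p53 lucOS tumours, and 21.5, 27.3, 13.4 and 21.3 in β-catenin luc tumours against 14.9, 10.2 and 28.4 in p53 luc tumours. Its set 1 differences were −0.85 ± 0.63 among lucOS tumours and 0.29 ± 0.53 among luc tumours.

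Klrd1, encoding CD94, stood at 2.91, 4.97 and 8.23 in the β-catenin lucOS tumours and 7.78, 3.88 and 9.38 in the β-catenin luc tumours of set 2, against 43.8, 60.7, 51.7 and 41.6 in the p53 lucOS tumours. In set 1 it stood at 3.07 and 8.72 in β-catenin lucOS against 25.9, 13.9 and 10.1 in p53 lucOS tumours, which did not overlap, and at 3.40, 6.83, 6.27 and 8.32 in β-catenin luc against 12.2, 6.81 and 12.3 in p53 luc tumours, which did. The fitted differences were −3.06 ± 0.44 (lucOS, set 2), −1.39 ± 0.65 (lucOS, set 1) and −0.68 ± 0.54 (luc, set 1).

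Ncr1, encoding NKp46, was scarce. It stood at 5.09, 1.66 and 0.823 in β-catenin lucOS tumours and at 0, 3.88 and 3.41 in β-catenin luc tumours of set 2, against 9.13, 16.6, 16.9 and 15.4 in p53 lucOS tumours, from 0 to 18 reads per tumour. The set 2 β-catenin tumours lay below all p53 tumours, with a lucOS difference of −2.29 ± 0.67 (SE, n = 3 and 4), but in set 1 Ncr1 fell under the filter, ran from 1.25 to 5.97 in β-catenin and from 0.920 to 12.3 in p53 tumours, and overlapped. The set 2 call of Ncr1 was lost under edgeR or DESeq2, under TMM scaling, and without p53 lucOS tumour 1 (log2 −2.48) or β-catenin lucOS tumour 2 (−2.18) or 3 (−1.91), and in 3 other fits that left out a tumour Ncr1 was not tested.

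**Figure D3:**
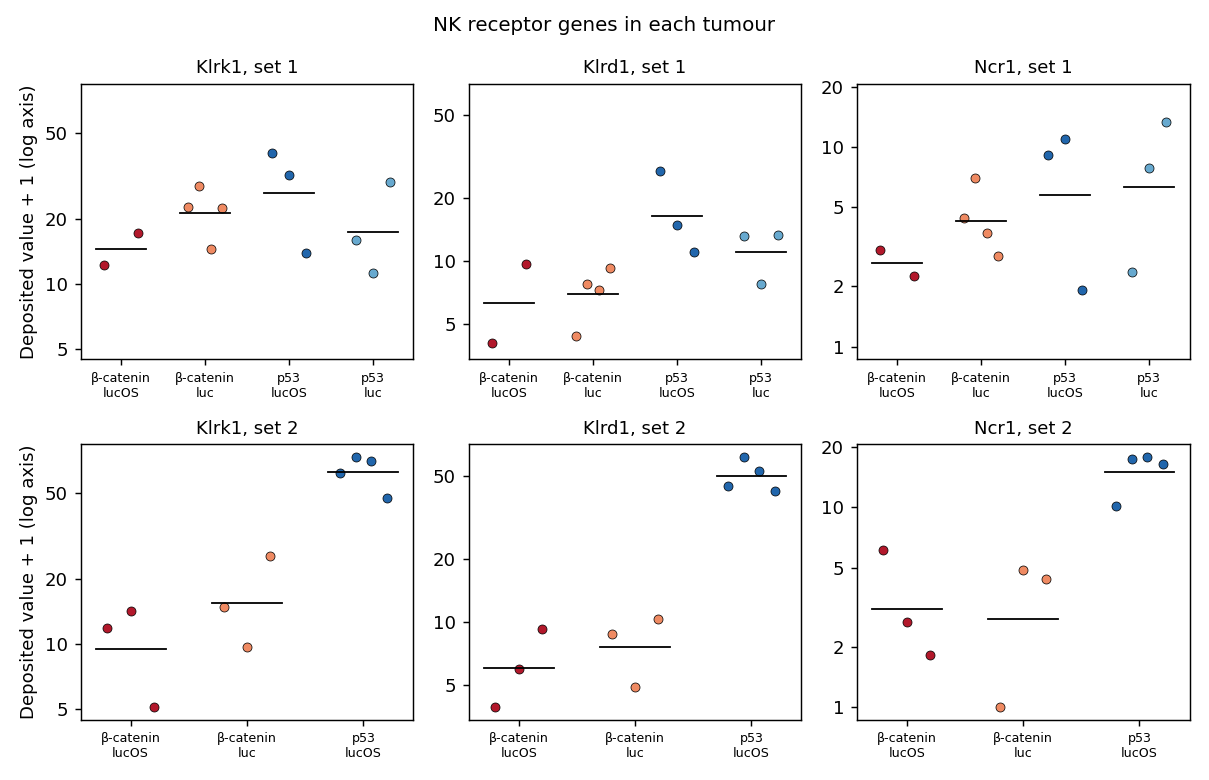
Deposited values plus 1 (log axis) of Klrk1, Klrd1 and Ncr1 in each tumour of set 1 (top) and set 2 (bottom), with the mean of the log values as a line. In set 2 all 6 β-catenin tumours lie below all 4 p53 lucOS tumours in the 3 genes. In set 1 the β-catenin and p53 tumours overlap in each gene, although the Klrd1 lucOS groups do not.

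Among lucOS tumours of set 2, 8 of the 9 members tested were called at an adjusted p under 0.05, 5 higher (the Raet1 rows) and 3 lower (the receptors), beside 17.0% of all 15625 genes called, 6.08% higher and 10.9% lower. The direction of the calls over all genes depended on the scaling: 35.8% of the called genes were higher as deposited and 56.4% under TMM scaling, with a median of −0.161 and −0.004 over all genes. Under TMM, Raet1e was at 4.41, Klrk1 at −2.57 and Klrd1 at −2.92. In set 1 the higher share was 39.3% as deposited and 64.2% under TMM among luc tumours, and 38.5% and 61.7% among lucOS tumours. All 5 higher and all 3 lower members had ranges that did not overlap, beside 10.3% and 22.5% of genes. In set 1, limma called 0 of 7 members in either driver contrast, beside 15.1% of genes among luc tumours and 4.21% among lucOS tumours; 4 members, the rows Raet1a, Raet1b, Raet1c and Raet1e, had an unadjusted p under 0.05 in each contrast. DESeq2 called those 4 among set 1 lucOS tumours, beside 12.7% of genes, and edgeR called 0. Ranges did not overlap for 4 members above (13.5% of genes) and 2 below (24.3% of genes; Klrd1 and Ulbp1) among set 1 lucOS tumours and for none among luc tumours (10.9% of genes above and 23.2% below). In set 2 Klrd1 and Ncr1 reached the filter of 10 only in p53 tumours, and Raet1d only in β-catenin tumours. Klrd1 reached it only in p53 tumours in set 1 as well. These genes were thus tested there only through the group where they are high. Nothing is read from these counts, for that reason and since the members were chosen with results known.

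**Figure D4:**
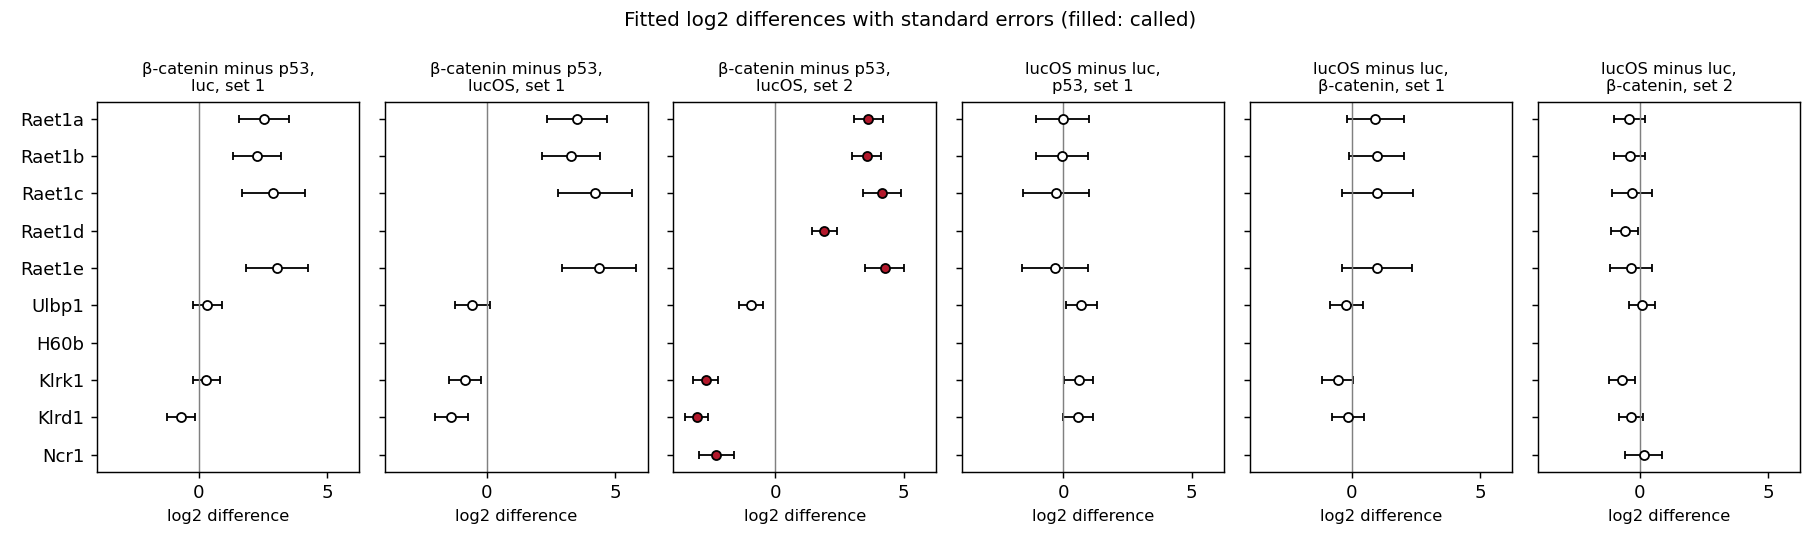
Fitted log2 differences of the members on log2(value + 1) with standard errors, β-catenin minus p53 in the 3 left panels and lucOS minus luc in the 3 right ones; filled points were called, and members under the filter are left out. The Raet1 rows tested lie right of 0 in every driver panel (Raet1d was tested in set 2 only), and no point in the lucOS minus luc panels is filled.

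In the 4 tumours named JAX of that comparison, 3 β-catenin lucOS and 1 p53 lucOS, the differences of Raet1a, Raet1b, Raet1c and Raet1e were 4.28, 4.04, 4.70 and 5.0, and 4 of the 7 members tested were called (0.152% of genes were). Nothing is read from that count, since the called rows are the 4 near-identical copies and the p53 side is 1 tumour. Klrk1 was −2.31 there and not called, while Klrd1 and Ncr1 fell under the filter. The lone p53 tumour is assumed to vary like the other tumours. It had 10.7 of Raet1e, within the 3.65 to 68.7 of the p53 tumours named AL, and its Klrk1 and Klrd1 were the lowest of the 4. For the tumours named AL, driver and prefix cannot be told apart.

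No member was called between lucOS and luc tumours, a comparison that asks whether the model antigen goes with other levels (0.0% of genes were called by limma in each of these contrasts). Raet1e differed by 0.98 ± 1.37 (lucOS minus luc, log2, SE) among set 1 β-catenin tumours (n = 2 and 4; adjusted p = 1.0 by limma), −0.34 ± 0.82 among set 2 β-catenin tumours (n = 3 and 3; adjusted p = 1.0) and −0.34 ± 1.29 among set 1 p53 tumours (n = 3 and 3; adjusted p = 0.984). Klrk1 differed by −0.55 ± 0.60 and −0.70 ± 0.52 in the β-catenin tumours of sets 1 and 2 and by 0.59 ± 0.56 in the p53 tumours (adjusted p = 1.0, 1.0 and 0.953 by limma). With SEs of this size the test does not show that Raet1e or Klrk1 levels were alike. The 452, 376 and 304 of Raet1e in β-catenin lucOS tumours of set 2 all lay below the 466, 490 and 461 of the β-catenin luc tumours, as did the values of 2.36% of genes. Limma and edgeR called 0 genes in these 3 contrasts, where 222 to 722 genes had an unadjusted p under 0.05 and DESeq2 called 9 to 18 genes, no member among them.

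Nor was the driver difference with lucOS told apart from that with luc in set 1. For Raet1e the lucOS difference exceeded the luc difference by 1.31 ± 1.88 (adjusted p = 1.0 by limma) and for Klrk1 the change was −1.14 ± 0.82 (adjusted p = 1.0). Limma and edgeR called 0 genes in this test, and DESeq2 called 17.

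The partners of the receptors were read beside them. Klrc1, encoding NKG2A, stood at 2.18, 4.97 and 7.41 in β-catenin lucOS tumours of set 2, against 31.9, 46.0, 54.7 and 29.7 in p53 lucOS tumours. It was called lower (log2 −2.89 ± 0.45). Klrc1 reached the filter of 10 in set 2 only in the p53 tumours, where it is high, and is the partner of a member selected on this difference. Its call therefore supports nothing. Klrc2, encoding NKG2C, stood at 0.728, 0 and 0.823 against 6.39, 7.36, 8.95 and 7.13 and fell under the filter. H2-T23, encoding Qa-1, stood at 2111, 2140 and 3886 against 3258, 2593, 2605 and 2345, with groups that overlapped. Among luc tumours of set 1 H2-T23 stood at 6808, 3383, 3241 and 3946 in β-catenin tumours, all above the 2126, 1844 and 2379 of p53 tumours, but it was not called (log2 0.98 ± 0.39, adjusted p = 0.112 by limma). Hcst, encoding DAP10, stood at 10.9, 9.12 and 7.41 against 22.8, 35.0, 9.95 and 5.94 and overlapped, whereas Tyrobp, encoding the adaptor DAP12, stood at 467, 544 and 221 against 740, 959, 667 and 556, which did not, and was not called (adjusted p = 0.141 by limma).

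Further genes of NK and T cells were called lower in the same tumours, in lists also written with earlier results known. In set 2 the filter kept 7 of 14 lectin-like receptor, 9 of 13 effector and 3 of 11 Ly49 genes for testing. Scarce genes could pass it through the p53 tumours alone, as Klrc1 did, so nothing is read from the counts and medians of these lists. The same limit holds for the lists further below. Among set 2 lucOS tumours, 4 of 7 tested CD94/NKG2 and lectin-like NK receptor genes were called lower, beside 10.9% of all genes. The median of the 7 was −2.83, against −0.161 over all genes. Klri2 (log2 −4.10 ± 0.46) and Klre1 (−3.38 ± 0.53), both receptors of NK cells, led them. All 14 genes of this list summed to 205.2 to 653.3 in β-catenin and 336.3 to 610.9 in p53 tumours, which overlapped. Also called lower were 8 of 16 other NK receptor genes (median −1.62), 3 of 7 NK transcription factors (Eomes, Tbx21 and Ikzf3; median −0.48), 7 of 9 cytotoxic effectors (median −2.12) and 1 of 3 Ly49 receptors (Klra7). Granzyme A (Gzma, −3.34 ± 0.45), granzyme B (Gzmb, −3.23 ± 0.73) and perforin (Prf1, −2.60 ± 0.61) were among the effectors. Il15, a cytokine that NK cells need, was called lower (−1.19 ± 0.31). Of the other NK receptors, Cd7 (−3.25 ± 0.68), Il2rb (−2.88 ± 0.39), the IL-2 and IL-15 receptor β chain, and Cd226 (−2.62 ± 0.62), an activating receptor also called DNAM-1, differed most. Of 10 adaptor and signalling genes tested, 3 were called lower, Zap70 (−1.95 ± 0.51), Lcp2 (−1.34 ± 0.38) and Cd247 (−1.16 ± 0.27). Il12b (−2.65 ± 0.74) was the other of 4 tested NK-activating cytokine genes called lower. None of 8 tested ligands of other NK receptors was called by limma (3 had an unadjusted p under 0.05), H2-K1 among them (−0.13 ± 0.31). Of 5 genes for enzymes that shed NKG2D ligands or act with them, Mmp9 (−1.43 ± 0.40) and Pdia6 (−0.53 ± 0.14) were called lower as deposited and 0 under TMM scaling. TMM left 4 of 7 lectin-like receptor, 7 of 16 other NK receptor, 3 of 7 transcription factor and 7 of 9 effector genes called lower, 2 of 10 adaptor and signalling genes and 1 of 4 cytokine genes.

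In set 1, among luc tumours Gzma (log2 −3.07 ± 0.70), Gzmb (−2.92 ± 0.65), Eomes (−3.08 ± 0.67) and Il2rb (−2.57 ± 0.55) were called lower, and H2-K1, an MHC class I gene that engages inhibitory Ly49 receptors, was called higher (1.16 ± 0.32, adjusted p = 0.0357 by limma). These were 2 of 9 cytotoxic effectors, 1 of 8 NK transcription factors and 1 of 14 other NK receptors (9.16% of all genes were called lower). Of 6 lectin-like receptor genes 0 were called as deposited, and under TMM scaling 1 was called higher. The sum of the lectin-like list lay the other way among luc tumours, at 638.4 to 821.7 in β-catenin against 339.5 to 484.2 in p53 tumours. Among lucOS tumours of set 1 limma called 0 genes of these 4 lists, beside 2.59% of all genes called lower; 5 of 9 effectors, 3 of 8 transcription factors, 2 of 14 other NK receptors and 1 of 6 lectin-like receptors had an unadjusted p under 0.05. The median of the 9 cytotoxic effectors tested was −1.85 among lucOS and −1.0 among luc tumours of set 1, against −0.147 and −0.198 over all genes. Cd247, the CD3ζ chain of the T cell receptor and of NK receptor complexes, was called lower in both contrasts of set 1. It was at −1.41 ± 0.26 among lucOS and −0.71 ± 0.22 among luc tumours. Under TMM scaling 1 of the 10 adaptor and signalling genes was called lower among lucOS tumours and 0 among luc tumours.

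Genes of other cells moved with the receptors, and their part was not tested. T cell markers, 13 genes, summed to 430.3 to 699.9 in β-catenin lucOS tumours and 1118 to 1911 in p53 lucOS tumours of set 2. Of 12 tested, 9 were called lower, beside 10.9% of all genes. In set 1 the sums of these groups were 409.2 to 429.8 against 856.8 to 1386. Pan-leukocyte markers, 6 genes, summed to 1837 to 3773 against 4527 to 7728 in set 2, with 4 of 6 called lower (3 under TMM), and to 2515 to 5938 against 2921 to 5245 in set 1, where they overlapped. Per pan-leukocyte sum, Klrd1 came to 0.0860% to 0.448% in β-catenin lucOS tumours of set 2, against 0.727% to 0.919% in p53 lucOS tumours, and Klrk1 to 0.224% to 0.352% against 0.941% to 1.16%. Per T cell sum, Klrk1 came to 0.956% to 1.90% in β-catenin lucOS tumours of set 2, against 3.20% to 4.15% in p53 lucOS tumours, while β-catenin luc tumour 3 stood at 3.52%. In set 1 Klrk1 per T cell sum lay the other way among luc tumours, at 3.29% to 5.75% in β-catenin against 1.24% to 2.81% in p53 tumours, and overlapped among lucOS tumours, at 2.75% to 3.77% against 1.504% to 3.18%. In bulk tumour RNA, fewer cells of a type and less RNA per cell cannot be told apart.

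Markers of further cell types were read among the set 2 lucOS tumours. Of all genes, 10.9% were called lower and 6.08% higher there. Counts of 1 or 2 genes in lists this short are not read as a loss or gain of a cell type. ILC1 markers, of innate lymphoid cells close to NK cells, had 3 of 5 called lower (Cxcr6 −1.69 ± 0.43, Inpp4b −1.20 ± 0.36 and Itga1 −0.86 ± 0.25) and summed to 1119 to 1639 in β-catenin against 2173 to 2503 in p53 tumours. Of 8 dendritic cell markers 2 were called lower (Siglech −3.59 ± 0.55 and Ccr7 −2.26 ± 0.52), of 7 neutrophil markers 2 (Cxcr2 −2.16 ± 0.59 and Csf3r −1.60 ± 0.33), of 5 B and plasma cell markers 1 (Mzb1 −2.07 ± 0.42) and of 8 endothelial markers 2 (Cdh5 −1.39 ± 0.35 and Pecam1 −1.08 ± 0.32). Macrophage markers were mixed, with 2 of 11 called higher, the Kupffer cell genes Clec4f (5.85 ± 1.24) and Vsig4 (3.88 ± 1.04), and 1 lower (Csf1r −0.79 ± 0.24). Of 9 hepatocyte markers Tat, a liver enzyme that breaks down tyrosine, was called higher (3.36 ± 0.71), and of 7 fetal liver genes Dlk1 was called lower (−8.61 ± 1.57). Among luc tumours of set 1 limma called 2 of 9 hepatocyte markers higher and 3 of 8 fetal liver genes lower. These counts were 2 and 1 under TMM scaling, and 15.1% of all genes were called there as deposited in either direction. Tat (3.46 ± 0.67) and Dlk1 (−6.73 ± 2.05) were among those called as deposited. Under TMM scaling of set 2, 1 of 5 ILC1, 1 of 8 endothelial and 0 macrophage markers were called lower among lucOS tumours. The set 2 counts of the dendritic cell, neutrophil, B and plasma cell, hepatocyte and fetal liver lists were as given. The part of these cells in the ligand and receptor differences was not tested.

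**Figure D5:**
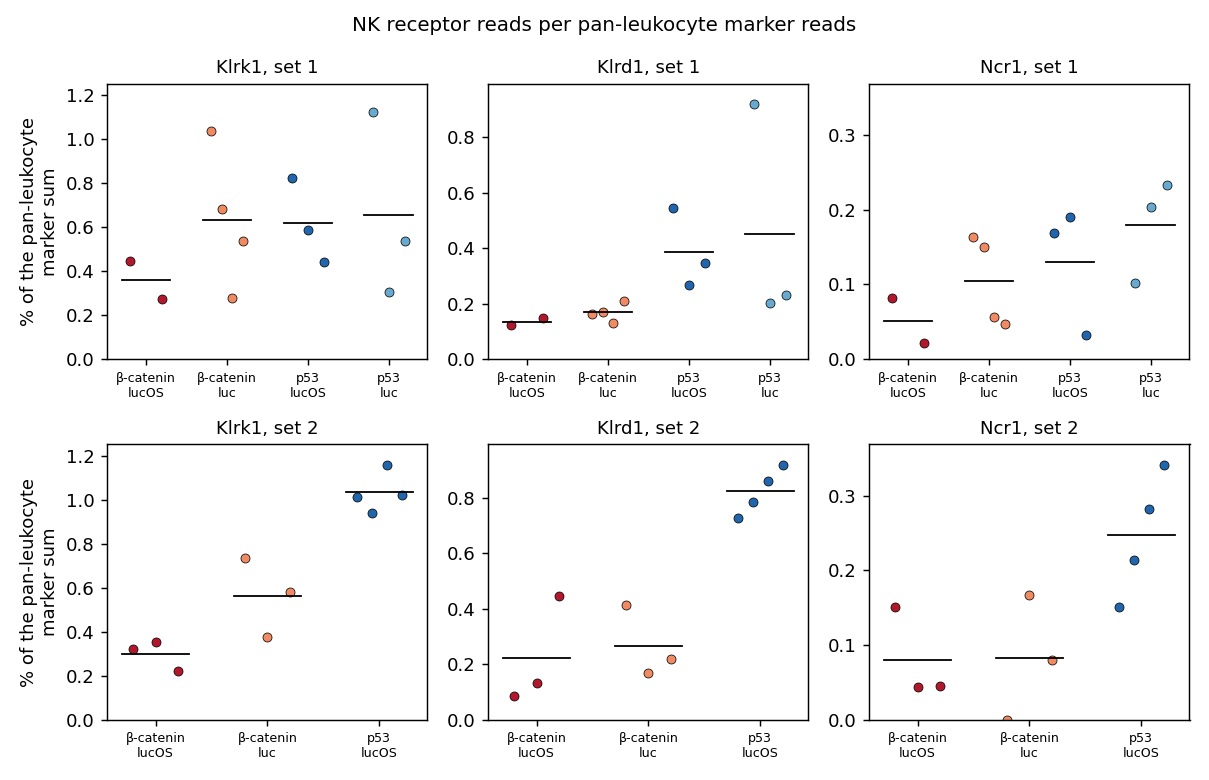
Reads of Klrk1, Klrd1 and Ncr1 as a percent of the reads of 6 pan-leukocyte markers in each tumour, set 1 top and set 2 bottom, with the mean as a line. In set 2 the p53 lucOS tumours lie above all β-catenin tumours in Klrk1 and Klrd1, while for Ncr1 a β-catenin luc tumour at 0.167% lies above the lowest p53 tumour at 0.151%. In set 1 the β-catenin and p53 tumours overlap in the 3 genes.

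DNA damage and cell cycle genes, groups tied to RAE-1 expression in mouse cells, gave counts that depended on the scaling. Among set 2 lucOS tumours 4 of 8 DNA damage response genes, such as Chek1 (log2 −1.42 ± 0.34), and 3 of 10 E2F and cell cycle genes, Top2a (−1.78 ± 0.30), Mki67 (−1.21 ± 0.36) and Cdk1 (−1.03 ± 0.31) were called lower. Atrip (−0.68 ± 0.17) and Chek2 (−0.99 ± 0.29) were also called lower. Under TMM scaling 1 of 8 and 1 of 10 were called lower, and over all genes 10.9% were called lower as deposited. In set 1 the counts called lower were 1 of 8 and 1 of 10 in each driver contrast as deposited, and under TMM 0 of 8 and 1 of 10 among lucOS and 0 in both lists among luc tumours. There, as deposited, Chek1 (−1.60 ± 0.36) and Top2a (−1.83 ± 0.38) were called lower among lucOS tumours and Atrip (−0.74 ± 0.19) and Top2a (−1.11 ± 0.32) among luc tumours. None of 7 tested retinoic acid response genes was called by limma in set 2 (4 had an unadjusted p under 0.05), and Dhrs3 was called higher among set 1 luc tumours (0.99 ± 0.21).

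Genes most like Raet1e were ranked by the lower of 2 Pearson's r, over the 12 tumours of set 1 and the 10 of set 2, among 14791 genes kept in both. After the Raet1 rows came Serpinb8 (lower r 0.902), Rps6ka4 (0.900), Mgmt (0.894), Nabp1 (0.892) and Ostm1 (0.891). Serpinb8 stood at 385.6 to 2184 in β-catenin tumours and 6.39 to 55.7 in p53 tumours of set 2. For Klrk1 the genes were Igtp (0.846), Nmrk1 (0.843), Ifi27l2a (0.842), Gbp6 (0.817) and Apol9b (0.815), of which Igtp, an interferon-inducible GTPase, ran from 383.1 to 928 in β-catenin and 722.8 to 1801 in p53 tumours of set 2. The tumours share their drivers, so these r are a description.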

How the data were processed

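RNA was extracted with Trizol and TruSeq libraries were made, per the labels' protocols; the submitters' processing notes name TopHat2, featureCounts, DESeq2 and mm10, with no version. The authors deposited a table of signal for each set: in all 22 tumours 100% of values were whole reads divided by 1 factor per tumour, within 0.01 reads. Set 1 lists RefSeq transcripts; a gene was taken as its most abundant transcript (4914 genes had more than 1). Date-like symbols were restored from accessions (53, set 1) or left out (27, set 2). Genes were kept that reached 10 in no fewer than 2 (set 1) or 3 (set 2) tumours, which left 7 of 10 and 9 of 10 members. Log2(value + 1) was fitted with limma 3.58.1 (trend) in R 4.3.3, all groups of a set together, with Benjamini-Hochberg adjustment over all kept genes. Called means an adjusted p under 0.05. Alternatives were TMM scaling, no filter, a pseudocount of 5, edgeR 4.0.16 and DESeq2 1.42.0 on the recovered reads, fitting only the groups compared, the mean over transcripts (set 1), summed Raet1 copies, tumours named JAX only (set 2) and leaving out each tumour. Limma and edgeR, but not DESeq2, were run on simulated counts for the set 1 luc and set 2 lucOS driver contrasts. The spread of those counts was fixed and not taken from these tumours, and nothing is read from that run.

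The members and 23 lists (215 genes) were chosen with earlier results of these data known. Named are all members, their partners, in each list the called genes with up to 3 of the largest differences or the most abundant gene, and the 5 genes most like Raet1e and Klrk1; not all genes of this rule are printed. Sequences came from GENCODE vM21 and RefSeq (GRCm38.p6), and 7 of 10 members matched.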

Additional observations from a re-analysis of the deposited data

Results flagged for a closer look

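H60b had a value of 0.995 (1 read) in p53 lucOS tumour 3 of set 2, while the other 3 tumours of that group stood at 0, which set this tumour apart from the rest of its group. It was the only one set apart of 20 groups of 4 tumours examined. The gap comes from 3 values tied at 0 and 1 read. A single read cannot be told from 0 at this depth.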

How the results depend on the processing

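Of the counts of members called, 3 changed by over 1.5 times under another processing choice: among set 1 lucOS tumours DESeq2 called 4 (the 4 Raet1 rows Raet1a, Raet1b, Raet1c and Raet1e) where limma called 0, and among set 2 lucOS tumours 4 were called when the Raet1 copies were summed, which leaves fewer features, and 4 in the tumours named JAX only, which holds fewer tumours and tests fewer members. Leaving out each tumour of the groups compared in turn gave 0 to 1 members called among set 1 luc tumours, the 1 beside 6.14% of genes. Among set 2 lucOS tumours it gave 6 to 7, where 8 were called with all tumours, beside 17.0% of genes. The share of all genes called is not given for those set 2 fits or for the summed copies. Most called rows are near-identical copies, so nothing is read from these counts. Over all genes, among set 1 lucOS tumours 678 were called by limma, 2053 by DESeq2 and 418 by edgeR, and in the JAX tumours of set 2 23 of 15083. The Ncr1 call of set 2 was lost at −2.17 under TMM scaling, −2.30 by edgeR and −2.35 by DESeq2, the Raet1d call at 1.92 when only the groups compared were fitted and 2.0 in the JAX tumours, where Klrk1 (−2.31) was not called and Klrd1 and Ncr1 fell under the filter and gave no value. No paired analysis was possible because the labels carry no replicate numbers that pair tumours. Signs changed only in fits that left out a tumour, in members that were not called, and the cause was not tested. These log2 differences ran, for β-catenin minus p53 among set 1 luc tumours, from −0.026 to 0.67 for Klrk1 and from −0.32 to 0.72 for Ulbp1. For lucOS minus luc they ran among set 1 p53 tumours from −0.83 to 0.99 for Raet1a, from −0.62 to 0.90 for Raet1b, from −1.20 to 1.01 for Raet1c and from −1.31 to 0.997 for Raet1e, among set 1 β-catenin tumours from −0.77 to 0.48 for Klrd1, and among set 2 β-catenin tumours from −0.59 to 0.56 for Ncr1 and from −0.12 to 0.45 for Ulbp1. For the lucOS difference minus the luc difference they ran from −0.065 to 1.76 for Raet1a, from −0.0078 to 2.21 for Raet1c and from −0.020 to 2.28 for Raet1e. The low reads of Ncr1, Klrd1, Raet1d and H60b limit what their values can show.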
